A study of Mus musculus with 3 samples.

Results

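The genes followed here are 43 markers of the dividing cell, all found among the 32285 features of the deposited matrices. They were taken as a fixed list: 19 genes of S phase, 22 of G2/M, and Stmn1 and Hmgb2, which serve in both phases and were summed with neither. Their raw counts of unique molecular identifiers (UMIs, 1 per captured RNA molecule) were read in every annotated cell, by library, class and subcluster, and in the barcodes with 4000 or more genes that the authors' tables leave out. A cell passes through G1, copies its DNA in S phase, and prepares for and completes division in G2 and mitosis (M). S phase genes encode the helicase, the clamp and the enzymes that make nucleotides, and are switched on by E2F factors, while G2/M genes encode the cyclins, kinases, motors and centromere proteins of the spindle and are controlled through CHR elements and CCAAT boxes in their promoters. T cells that help B cells divide early in an immune response, and their daughters settle in the B cell follicle.

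The study sorted follicular T cells from mouse spleen and sequenced them with the 10x 3′ assay, to follow how Siglec-G, an inhibitory receptor of B cells, bears on T cell help. All mice were immunised with OVA-liposome and taken at day 14, and the labels give no age, strain, Cre driver or number of mice. The groups are Wild-Type (WT; replicates 1 and 2) and Siglec-G B-cell knockout (BKO; 1 library), in which the T cells themselves are not the labelled target. The authors' tables put each cell in follicular helper T cells (Tfh) or follicular regulatory T cells (Tfr), the Foxp3-expressing cells that restrain the response. The labels put WT replicate 1 in batch 1 with BKO, and WT replicate 2 in batch 2.

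The WT replicates hold the same cells. WT replicate 2 had 5721 barcodes, which include each of the 5554 in WT replicate 1, with UMI totals correlated at r = 0.997, whereas 13 annotated BKO barcodes were shared with WT replicate 2. One library therefore stood against another, no test between genotypes was possible, and the agreement of the WT replicates does not measure variation between mice. Of 5068 barcodes annotated in both WT replicates, 527 were put in different classes, so the Tfh and Tfr sums of the replicates also differ in the cells they hold. Values are CPM, a gene's UMIs scaled to the total of all UMIs summed in the same cells, given throughout in the order WT replicate 1, WT replicate 2, BKO. Log2 ratios set BKO against the mean of the WT replicates after adding 0.5 CPM. A gene was measured where the mean of the 3 samples was at least 5 CPM, and was called where BKO lay at least 1.5 times beyond both WT replicates. The matrices held 32518538, 54059000 and 85225125 UMIs, with 3727, 3668 and 6389 Tfh cells and 1416, 1449 and 2044 Tfr cells. Cd3e, a subunit of the T cell receptor complex, had a UMI in 92.0%, 98.0% and 97.6% of Tfh cells, and Cd79a of B cells in 0.322%, 0.545% and 0.360%. Foxp3 had a UMI in every Tfr cell, and in 0.402%, 9.95% and 0.908% of Tfh cells.

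The promoters of both gene groups were set beside the list, because S and G2/M members parted in the annotated Tfh cells below. RefSeq windows from 250 bases before to 50 after the gene start (GRCm38.p6) were at hand for 36 of the 43 members, in 38 windows. There was no entry for Mcm4, Gins2, Ccne2, Ccna2, Aurkb, Tpx2 and Stmn1. The words TTTCCCGC, TTTGGCGC, TTTCGCGC and TTTGCCGC were searched for E2F, TTTGAA for CHR and CCAAT for the CCAAT box, on both strands, and E2F words may overlap each other. An E2F word lay in 7 of 18 S phase windows (38.9%), 1 of 19 G2/M windows (5.26%) and 2.26% of all 32851 windows. A CHR word lay in 1 of 18 S phase windows (5.56%, Mcm2), 14 of 19 G2/M windows (73.7%) and 17.9% of all. The CCAAT word was in 61.1%, 89.5% and 37.4%, and CHR and CCAAT stood together in the same 14 G2/M windows (73.7%) against 6.95% of all. A match is a description of the letters and not a bound site. The stretches below run 5′ to 3′ along the gene's strand and lie before the RefSeq start and outside annotated exons, with matches to any of the words in capitals, and the first 3 show the E2F word of S phase members.
Mcm6 (chr1:128359706-128359865, minus strand): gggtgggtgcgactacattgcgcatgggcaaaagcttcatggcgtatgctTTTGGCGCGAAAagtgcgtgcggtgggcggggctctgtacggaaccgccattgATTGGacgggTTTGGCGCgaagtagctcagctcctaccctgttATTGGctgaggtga
Mcm5 (chr8:75109349-75109508, plus strand): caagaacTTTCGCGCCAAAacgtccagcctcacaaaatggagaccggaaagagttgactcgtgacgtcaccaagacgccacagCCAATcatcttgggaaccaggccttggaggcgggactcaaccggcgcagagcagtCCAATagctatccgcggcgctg
Cdc6 (chr11:98907991-98908150, plus strand): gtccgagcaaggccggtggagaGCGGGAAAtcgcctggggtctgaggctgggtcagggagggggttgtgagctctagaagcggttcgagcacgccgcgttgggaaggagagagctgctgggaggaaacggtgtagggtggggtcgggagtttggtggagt
The next 4 show the CHR word, TTTGAA or its reverse complement, with CCAAT boxes near it in G2/M members that differ in the results below. Cdk1 was the only G2/M member with an E2F word in its window.
Mki67 (chr7:135716380-135716539, minus strand): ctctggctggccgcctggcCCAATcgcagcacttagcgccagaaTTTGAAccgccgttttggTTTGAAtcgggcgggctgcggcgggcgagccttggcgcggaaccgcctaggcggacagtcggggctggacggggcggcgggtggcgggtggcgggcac
Top2a (chr11:99024190-99024349, minus strand): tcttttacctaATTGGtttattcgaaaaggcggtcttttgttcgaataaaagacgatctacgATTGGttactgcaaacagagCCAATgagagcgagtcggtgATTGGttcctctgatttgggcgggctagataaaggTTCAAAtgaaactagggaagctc
Cdk1 (chr10:69352939-69353098, minus strand): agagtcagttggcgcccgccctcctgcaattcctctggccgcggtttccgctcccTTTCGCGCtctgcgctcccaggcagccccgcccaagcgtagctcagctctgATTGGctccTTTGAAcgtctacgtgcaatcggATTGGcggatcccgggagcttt
Kif11 (chr19:37376222-37376381, plus strand): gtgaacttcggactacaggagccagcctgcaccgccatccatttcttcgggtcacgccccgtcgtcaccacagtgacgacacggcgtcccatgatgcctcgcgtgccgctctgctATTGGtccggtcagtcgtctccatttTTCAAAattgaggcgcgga

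In annotated Tfh cells the G2/M members were lower in BKO, and the S phase members were close to WT. Of 22 G2/M members 15 were measured, and 12 were called lower and 0 higher. All 15 had a log2 ratio below 0, and the median was -1.03. Of the 12, Cdk1, Cenpf, Cenpe, Kif11, Tpx2 and Cdca3 lay under 5 CPM in BKO and reached the minimum only through WT. At a minimum of 20 CPM, 2 G2/M members were called lower. Of 19 S phase members 16 were measured, 2 were called lower and 0 higher, with a median of -0.29. Over all 9880 measured genes 4.29% were called lower and 0.688% higher, and the median was -0.10. The 10 members not measured were Cdc6, Ccne2 and E2f1 of S phase and Ccnb1, Ccna2, Plk1, Aurkb, Aurka, Bub1 and Bub1b of G2/M. The summed level of markers of CD8 T and NK cells also differed in Tfh cells, at 439, 419 and 82.9 CPM. Of its 7 measured genes 5 were called lower (Nkg7, Gzmk, Gzmb, Eomes and Prf1), while Cd8a had a UMI in 0, 1 and 1 cells. The part of these markers in the result was not tested.

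Mki67, the proliferation antigen that coats mitotic chromosomes, stood at 51.0, 42.7 and 19.2 CPM (log2 ratio -1.27). Top2a, the topoisomerase that untangles sister DNA, stood at 57.8, 54.9 and 27.4 CPM (-1.03). In both, BKO lay under both WT replicates and outside their counting intervals. Cenpf, a protein of the kinetochore, was at 15.4, 12.5 and 3.78 CPM (-1.76), with 95% Poisson intervals of 13.7 to 17.3, 11.3 to 13.9 and 3.22 to 4.40. Kif11, the motor that pushes the spindle poles apart, was at 13.6, 12.7 and 3.84 CPM (-1.65). Nusap1, which bundles spindle microtubules, was at 18.8, 14.8 and 5.06 CPM (-1.64). In each of these the BKO interval lay below both WT intervals. Tpx2, the activator of Aurora A on the spindle, was at 14.7, 11.3 and 3.89 CPM (-1.62), and Cenpe, a kinetochore motor, at 15.5, 12.2 and 4.71 CPM (-1.46). Ube2c, the ubiquitin-conjugating enzyme of the anaphase-promoting complex, was at 20.7, 17.3 and 7.94 CPM (-1.21).

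The other called members differed by less. Cdca3, which helps degrade a brake on mitotic entry, was at 10.3, 8.32 and 4.42 CPM (-0.997), and Cdk1, the mitotic kinase, at 10.3, 8.63 and 4.53 CPM (-0.98). Birc5 and Cdca8, both of the chromosomal passenger complex, were at 20.3, 15.4 and 9.34 CPM (-0.90) and at 19.6, 13.9 and 9.22 CPM (-0.83). The 3 measured G2/M members without a call were Ccnb2 (a B-type cyclin; 13.5, 11.1 and 7.60 CPM; -0.66), Cdc20 (activator of the anaphase-promoting complex; 7.42, 5.85 and 4.71 CPM; -0.45) and Cenpa, the histone of centromeres, at 51.3, 48.5 and 45.3 CPM (-0.14). Stmn1, which takes microtubules apart, was called lower at 83.3, 64.5 and 41.2 CPM (-0.84). Hmgb2, a chromatin protein of dividing cells, was not, at 588, 555 and 488 CPM (-0.23).

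Among S phase members the 2 called lower were Tk1, the thymidine kinase of the salvage pathway, at 8.70, 7.19 and 4.33 CPM (-0.81), and Uhrf1, which carries DNA methylation over to the new strand, at 6.30, 6.18 and 3.55 CPM (-0.74). Both were close to the 5 CPM minimum, and neither was called at a minimum of 20 CPM. The helicase subunit Mcm6 stood at 73.7, 75.4 and 82.6 CPM (0.15) and Mcm4, another subunit, at 33.2, 31.5 and 25.6 CPM (-0.33). Pcna, the sliding clamp of the polymerase, was at 65.5, 67.4 and 64.7 CPM (-0.04), and Dut, which clears dUTP, at 79.8, 69.9 and 65.2 CPM (-0.20). These 4 S phase genes therefore stayed within 1.5 times of WT, and the remaining measured ones ranged from -0.52 (Rrm2) to 0.07 (Cdt1). Summed over the phase, S stood at 452, 434 and 402 CPM and G2/M at 373, 318 and 177 CPM (log2 ratios -0.14 and -0.96). With TMM scaling, which moved the median of all genes by 0.16, the S sum changed sign to 0.02 and the G2/M sum stayed below WT at -0.80.

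**Figure D1:**
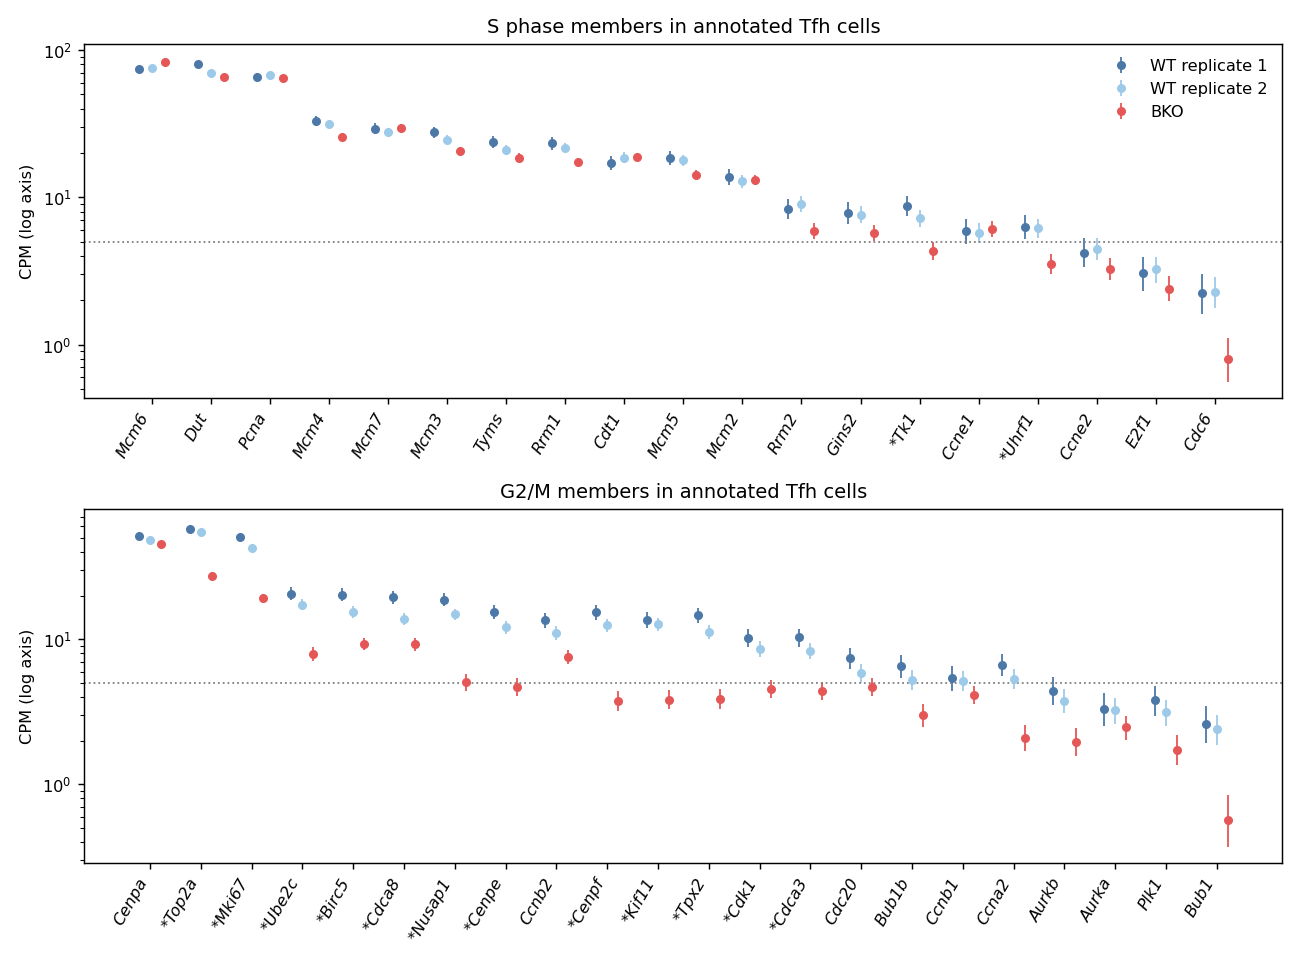
Levels of the S phase (upper) and G2/M (lower) members in annotated Tfh cells, in CPM on a log axis, for WT replicate 1, WT replicate 2 and BKO, in order of mean level. Bars are exact 95% Poisson intervals (counting error only), the dotted line is the 5 CPM minimum and an asterisk marks a call. In the lower panel the BKO points lie under both WT points for every measured member, most narrowly for Cenpa (51.3, 48.5 and 45.3 CPM).

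Most G2/M UMIs of WT Tfh cells lay in 1 of the authors' 9 Tfh subclusters. Subcluster 8, taken up here because its summed G2/M CPM was the highest, held only 64, 53 and 46 cells of the class, yet 69.6%, 62.6% and 38.6% of all G2/M UMIs of Tfh cells. Its summed G2/M level was 7102, 6967 and 5067 CPM against 90.7 to 246 CPM in the other 8 subclusters. Its S sum was 2332, 2011 and 2091 CPM against 308 to 689 CPM elsewhere. The ratio of G2/M to S was 3.05, 3.46 and 2.42 in subcluster 8 and 0.21 to 0.41 in the others. Since subcluster 8 was chosen on its G2/M sum, a high G2/M level beside S follows in part from that choice. The subclusters were made from all genes of these cells, so this is a description of the cluster and not a test. Its members rose over the other Tfh cells by a median of 75.6, 68.9 and 61.1 times for G2/M and 6.35, 4.92 and 6.12 times for S. Cenpa was lowest of the G2/M members (14.6, 14.3 and 15.0 times), and Rrm2, the small subunit of ribonucleotide reductase, highest of the S members (46.3, 37.7 and 41.8 times). In WT, subcluster 5 came next, at 246, 242 and 147 CPM for G2/M and 651, 661 and 689 CPM for S. It held 359 and 363 cells in WT and 11 in BKO, too few to compare, and in BKO subcluster 4 was higher in G2/M at 155 CPM.

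Without subcluster 8 the G2/M sums were 118, 123 and 110 CPM (-0.13) and the S sums 381, 387 and 379 CPM (-0.02). Leaving out the cells of highest G2/M level takes most of the WT G2/M UMIs with it, so few members remain to compare. Only 3 of the 22 G2/M members then reached 5 CPM, and 0 of 16 measured S and G2/M members were called, against 0.691% of 9838 genes higher and 3.79% lower. The 46 BKO cells of subcluster 8 were 0.72% of BKO Tfh cells, against 1.72% and 1.44% in WT. The levels within subcluster 8 also differed, but by gene. Kif11 stood at 287, 317 and 84.9 CPM (-1.82), Mki67 at 927, 883 and 406 CPM (-1.16), Cenpf at 392, 395 and 183 CPM (-1.10) and Top2a at 922, 998 and 521 CPM (-0.88). Birc5 stood at 498, 451 and 501 CPM (0.08) and Ccnb1, the first B-type cyclin, at 99.4, 107 and 116 CPM (0.16). Cdc20 was above both WT values, at 154, 143 and 204 CPM (0.46). Markers of CD8 T and NK cells moved with the genotype here, with summed levels of 718, 745 and 119 CPM in subcluster 8, Cd8a and Ncr1 being at 0 in all 3 samples. The B cell marker sum was 16.1, 21.0 and 40.8 CPM, with a Cd79a UMI in 0 of 64, 0 of 53 and 2 of 46 cells and Ms4a1 at 0. The part of either in the result was not tested.

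**Figure D2:**
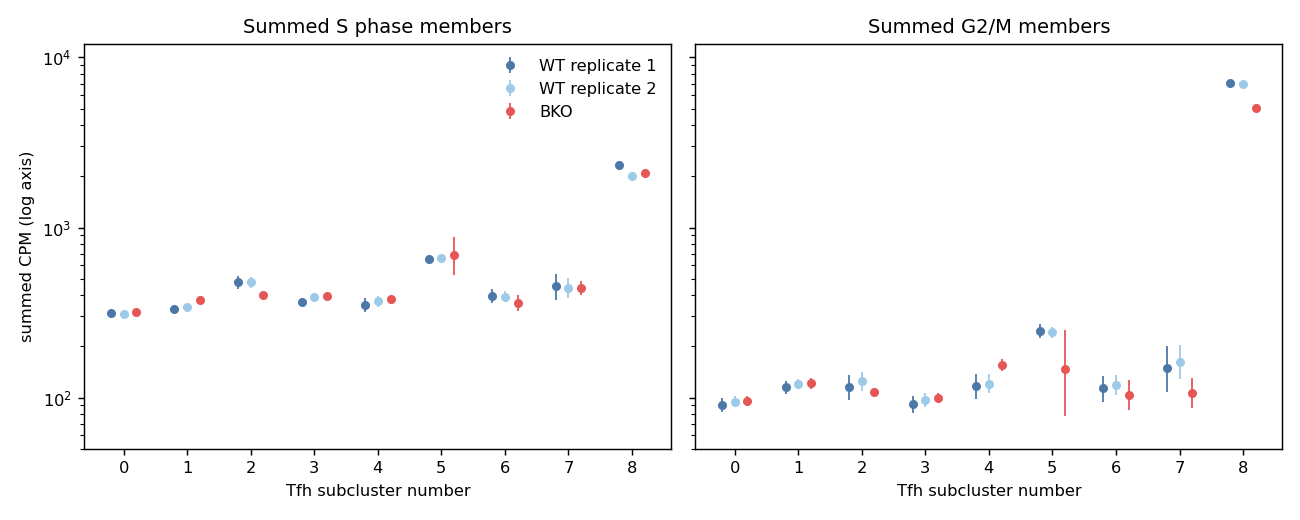
Summed CPM of the 19 S phase members (left) and the 22 G2/M members (right) in each of the authors' 9 Tfh subclusters, on a log axis, for the 3 samples. Bars are exact 95% Poisson intervals. Subcluster 8 stands at 7102, 6967 and 5067 CPM in G2/M, over 20 times above each other subcluster, and at 2332, 2011 and 2091 CPM in S.

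The split within G2/M ran along the genes' intron length, the span of a gene outside its exons in the GENCODE models. The samples were counted with different versions, cellranger-7.0.1 for WT and Cell Ranger 4 for BKO, per the file headers, and the sources used here do not say if intron reads were kept. In subcluster 8 the median log2 ratio was 0.03 for the 9 G2/M members with under 10 kb of intron and -1.01 for the 8 with 20 kb or more. The rank correlation of the ratio with intron length over the 22 genes was rho = -0.81 there and -0.85 in the unannotated barcodes described below. In all Tfh cells it was -0.79 over the 15 measured members, with medians of -0.90 for 5 short and -1.63 for 6 long genes. The genes share libraries and cells, so these correlations are descriptions. Short genes were thus also lower in Tfh cells, by less. The median log2 ratio of all measured genes in each of 30 bins of intron length was also taken off every gene. With it, 11 of the 15 G2/M members were called lower in Tfh cells, against 2.71% of all 9880 genes lower and 0.962% higher. The summed log2 ratio was -0.96. This trend is that of all genes: it moved Cenpf from -1.76 to -1.59 and Birc5 from -0.90 to -1.02. It cannot remove a stronger dependence among the members, and the part of intron counting was not tested. Bub1, Bub1b and Cenpe are among the long genes, and Ccnb1, Cdc20, Cenpa and Birc5 among the short ones.

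In Tfr cells neither phase differed by the rule. Of 19 S phase members 12 were measured, 6 lying above and 6 below 0 with a median of 0.02, and 0 were called, against 1.40% of 9860 genes higher and 3.41% lower. Only 4 of 22 G2/M members reached 5 CPM, and 0 were called. They were Mki67 at 22.3, 21.9 and 16.4 CPM (-0.42), Top2a at 27.9, 28.4 and 22.4 CPM (-0.33), Cenpa at 42.4, 38.5 and 52.8 CPM (0.38) and Cdca8 at 7.34, 7.31 and 8.18 CPM (0.15). Mki67 and Top2a lay under, and Cenpa and Cdca8 over, both WT values. The S phase genes of highest level were also close to WT: Mcm6 at 70.6, 72.2 and 90.5 CPM (0.34), Dut at 58.6, 53.9 and 61.7 CPM (0.13), Pcna at 55.8, 58.6 and 61.7 CPM (0.11) and Mcm4 at 26.0, 23.8 and 25.9 CPM (0.05). Stmn1 stood at 22.3, 17.6 and 21.4 CPM and Hmgb2 at 353, 347 and 374 CPM. The sums were 363, 361 and 387 CPM for S and 137, 132 and 133 CPM for G2/M.

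Within each library the annotated Tfr cells held less G2/M RNA than the annotated Tfh cells. The order depended on the cells counted: with the barcodes of 4000 or more genes described below put into the classes, the G2/M sums were 467, 587 and 742 CPM in Tfr and 568, 537 and 559 CPM in Tfh, higher in Tfr in WT replicate 2 and BKO. Without subcluster 8, Tfh cells stood at 118, 123 and 110 CPM. That was below the annotated Tfr sums of 137, 132 and 133 CPM in each sample. Of 13 measured G2/M members 6 were at least 1.5 times lower in Tfr in all 3 samples (Ccnb2, Birc5, Cenpf, Cenpe, Ube2c and Tpx2), and 0 were higher. These 6 lay under 5 CPM in Tfr in each sample and reached the minimum only through Tfh. Their calls follow in part from that. Of 14 measured S phase members 1 was lower (Rrm2, also under 5 CPM in Tfr), and Stmn1 was lower too. Over 9900 genes 2.51% were lower and 3.57% higher. Birc5 had a Tfr to Tfh log2 ratio of -2.43, -2.47 and -1.75, and Tpx2 of -3.16, -2.74 and -1.44. For both the smallest gap was in BKO, whose Tfh level was lower. Tfr cells are defined in the tables so that every one has a Foxp3 UMI, and Tfr had no subcluster like Tfh subcluster 8: its 7 subclusters ranged from 97.7 to 292 CPM in G2/M.

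Barcodes with a Foxp3 UMI and many G2/M UMIs were found outside both tables. Of barcodes with at least 2000 but fewer than 4000 genes and under 10% mitochondrial UMIs, 14 of 2984, 4 of 4290 and 13 of 6866 were left out of the tables. Every one of them had a Foxp3 UMI and a Cd3e UMI, and each held from 16 to 257 UMIs of G2/M members. Their summed G2/M level was 8302, 8363 and 6106 CPM, like that of Tfh subcluster 8, and their S sum was 1457, 501 and 3004 CPM. The range of genes that defines them was chosen after their values were seen. Of the annotated Tfr cells, 6, 11 and 4 had 10 or more G2/M UMIs. Foxp3 UMIs were found in 6 of 64, 11 of 53 and 3 of 46 cells of Tfh subcluster 8. Put with the Tfr cells, the left-out barcodes took the G2/M sum to 284, 164 and 192 CPM, in BKO above the 177 CPM of Tfh. Of 12 G2/M members then measured 0 were called, against 1.36% of 9881 genes higher and 3.39% lower. Of the 14 barcodes of WT replicate 1, the deeper WT replicate 2 had 8 over 4000 genes, 3 in the Tfh table, 0 in the Tfr table and 3 again in neither.

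Of the G2/M RNA of annotated cells and barcodes of 4000 or more genes, the larger part lay in those that the authors' ceiling on genes removes. Their tables hold cells with fewer than 4000 genes, and 295, 375 and 821 barcodes with 4000 or more were left out. These were 5.42%, 6.83% and 8.87% of all cells used. Counted in the matrices, 1, 500 and 0 annotated cells also had 4000 or more genes. The left-out barcodes began at 4008, 4660 and 4000 genes, so the ceiling did not cut WT replicate 2 at the same matrix count. The left-out barcodes had medians of 16208, 24930 and 19581 UMIs, and all were under 10% mitochondrial UMIs. Cd3e had a UMI in all of them and Cd79a of B cells in 1.69%, 2.40% and 1.34%. The B cell marker sum was 51.1, 49.8 and 46.6 CPM, the myeloid sum 228, 197 and 104 CPM and the plasma cell sum 134, 121 and 65.2 CPM. The CD8 T and NK cell sum was 288, 280 and 109 CPM, with Cd8a and Ncr1 at 0, and the part of these in the results was not tested. No doublet caller was run, and barcodes holding more than 1 T cell cannot be told apart from large dividing cells by these markers. Of the UMIs of annotated cells and left-out barcodes together, the left-out ones held 52.7%, 62.1% and 79.4% for G2/M. They held 44.2%, 48.4% and 57.0% for S, against 16.1%, 19.0% and 23.2% for all genes. Unannotated WT barcodes under 4000 genes are not in these totals, and held a further 1298 and 521 G2/M UMIs. Among G2/M members the highest share was that of Bub1, a kinase of the spindle checkpoint, at 72.1%, 74.4% and 93.5%, and Cenpf had 51.9%, 63.3% and 88.9%.

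**Figure D3:**
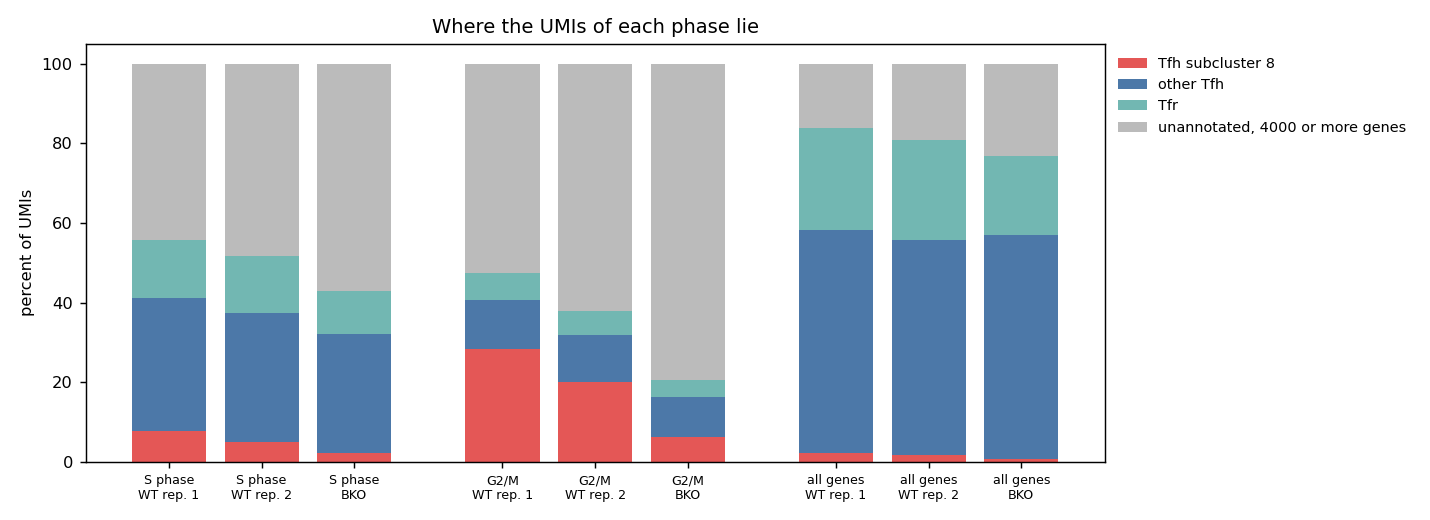
Percent of the UMIs of S phase members, G2/M members and all genes that lie in Tfh subcluster 8, other Tfh cells, Tfr cells and unannotated barcodes of 4000 or more genes, in each sample. Other barcodes are not in the total. The unannotated share of G2/M is 52.7% and 62.1% in WT and 79.4% in BKO, and that of subcluster 8 is 28.3%, 19.99% and 6.31%.

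In these barcodes 0 members were called lower. All 19 S phase members were measured and 0 were called, with a median log2 ratio of 0.00. All 22 G2/M members were measured, 2 were called higher and 0 lower, with a median of 0.36, against 0.881% of 9983 genes higher and 4.22% lower. Ccnb1 stood at 18.2, 19.3 and 33.4 CPM (0.82) and Birc5 at 91.7, 99.8 and 152 CPM (0.67). Both are short genes in the comparison by intron length above: the 9 members under 10 kb had a median of 0.49 here and the 8 of 20 kb or more a median of 0.00. Mki67 was at 276, 272 and 268 CPM (-0.03) and Top2a at 338, 352 and 380 CPM (0.14). Hmgb2 stood at 1489, 1559 and 1946 CPM (0.35) and Stmn1 at 415, 388 and 506 CPM (0.33). The sums were 1755, 1639 and 1751 CPM for S and 1748, 1813 and 2112 CPM for G2/M (log2 ratios 0.045 and 0.25). In those with no B cell marker UMI the ratios turned to -0.059 and -0.078. S and G2/M were thus about level with each other here, whereas G2/M was over 2 times S in subcluster 8.

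With annotated cells and these barcodes in 1 sum, all 43 members were measured and 0 were called, against 0.711% of 9981 genes higher and 2.99% lower. The S median was 0.13 and the G2/M median 0.28, running from -0.11 (Cenpe) to 0.59 (Ccnb1). The sums were 638, 645 and 712 CPM for S and 533, 556 and 616 CPM for G2/M. The lower G2/M level of BKO was therefore seen in annotated Tfh cells and not in all cells of the library. When the barcodes over the ceiling were put with Tfr where they had a Foxp3 UMI (57.6%, 66.7% and 48.7% of them) and otherwise with Tfh, the summed G2/M log2 ratio was 0.02 in Tfh with 0 calls, against 0.613% of 9949 genes higher and 3.53% lower. In Tfr it was 0.49, with 7 G2/M members and 1 S phase member called higher, against 1.18% of 10020 genes higher and 2.81% lower. Those 7 were Ccnb1, Ccna2, Cdk1, Birc5, Plk1, Aurkb and Ube2c, and the S phase member was Rrm2. A UMI of Foxp3 is a coarse criterion for barcodes of such depth, and the class of these barcodes was not tested.

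**Figure D4:**
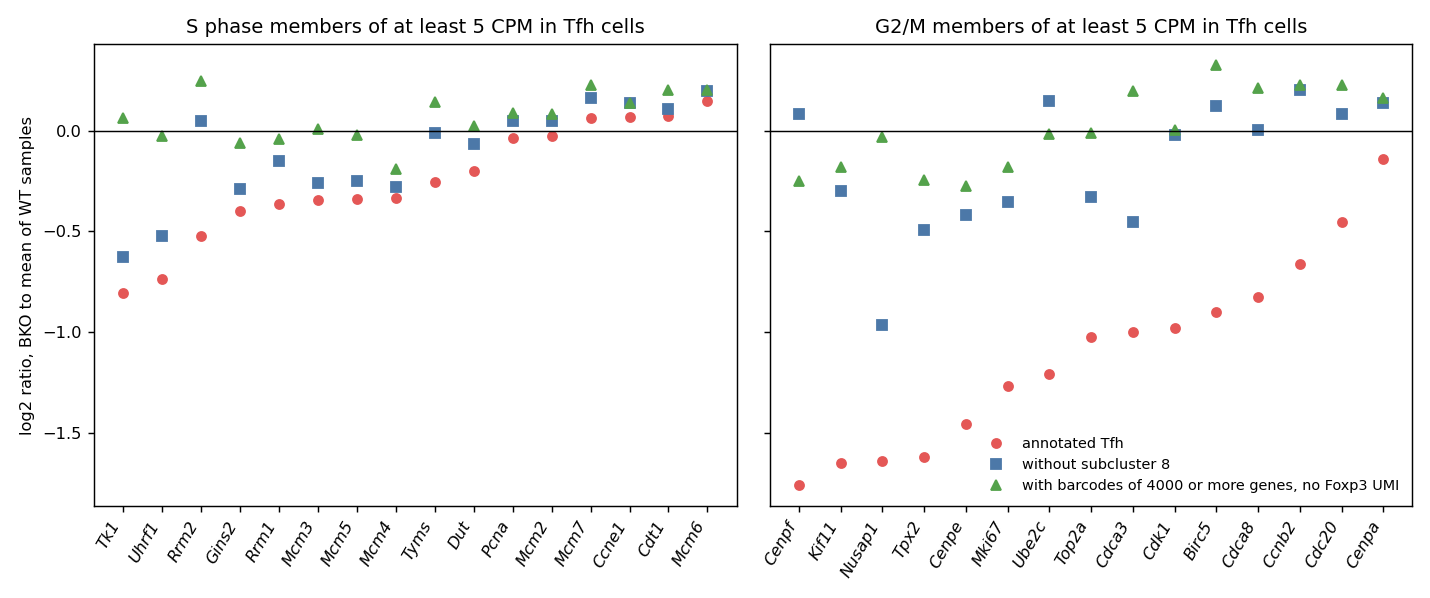
Log2 ratio of BKO to the mean of the WT replicates (0.5 CPM added) for S phase (left) and G2/M (right) members of at least 5 CPM in Tfh cells: as annotated, without subcluster 8, and with barcodes of 4000 or more genes that have no Foxp3 UMI. As annotated, Cenpf is at -1.76 and Cenpa at -0.14; with the barcodes added, Cenpf is at -0.25 and Birc5 at 0.33.

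The ceiling met the samples at unequal depth. Annotated cells had medians of 4584, 7527 and 6431 UMIs, but the table of WT replicate 2 counts a median of 0.659 of the UMIs of its matrix. Scaled by 0.713, the ratio of the medians of WT replicate 1 and BKO, 454 of the 821 BKO barcodes (55.3%) were expected to fall under 4000 genes. With those put back by the Foxp3 criterion, the summed G2/M log2 ratio in Tfh moved from -0.96 to -0.31, and 2 of 18 measured members were still called lower (Cenpf and Kif11), against 3.69% of 9892 genes lower and 0.637% higher. In Tfr it became 1.37 and 12 of 12 measured G2/M members were called higher, against 1.72% of 9891 genes higher and 3.32% lower. Only BKO barcodes were added here. Of these members, Ccnb2, Cdk1, Birc5, Cenpf, Cenpe, Ube2c, Nusap1 and Kif11 lay under 5 CPM in both WT replicates. They reached the minimum only through BKO, so their calls follow in part from the added barcodes. The WT replicates show the same step in the same cells. Of WT barcodes, 72 were annotated in WT replicate 1 and over the ceiling in WT replicate 2, 14 of them from Tfh subcluster 8. Their G2/M sum was 1713 CPM in both replicates, against 249 and 251 CPM in the 5068 barcodes annotated in both.

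In Tfh cells, counts of G2/M cells gave the same order as the sums. Each cell was thinned to 2500 UMIs, shallower cells were left out (230, 58 and 75), and a cell was counted where at least 3 UMIs of a phase remained. G2/M cells were 2.55%, 2.19% and 1.31% of Tfh cells (90, 79 and 83 cells), with exact Clopper-Pearson 95% intervals of 2.05 to 3.12, 1.74 to 2.72 and 1.05 to 1.62%. They were 1.01%, 0.898% and 1.23% of Tfr cells, whose intervals overlap. Unthinned, the Tfh shares were 6.01%, 10.7% and 7.33% at median depths of 4413, 7294 and 6243 UMIs. S phase cells were 7.64%, 7.56% and 7.50% of Tfh and 6.16%, 6.22% and 7.03% of Tfr cells. The log2 ratio of the S share depended on the count: in Tfh, -0.020 became -0.38 at 1500 UMIs, 0.23 unthinned and -0.95 with at least 5 UMIs, and in Tfr 0.18 became -0.57 with at least 5. That of the G2/M share in Tfr, 0.36, became -0.51 at 1500 UMIs. No class in the sort should lack these genes, so no background share could be set beside these. In BKO barcodes of 50 or fewer UMIs, which hold free RNA, S phase members stood at 742 CPM and G2/M members at 601 CPM. Annotated BKO cells had 398 and 165 CPM, and BKO cells with the barcodes over the ceiling had 712 and 616 CPM. The part of free RNA in low levels was not tested. Many cells lie near the threshold: 113, 121 and 163 Tfh cells had 2 G2/M UMIs and 18, 21 and 33 had 3.

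Among barcodes of 4000 or more genes the G2/M share was 29.8%, 30.1% and 29.7%, the same in each sample to within its interval. The S share was 46.8%, 41.1% and 38.6%. Most of these barcodes held few G2/M UMIs, with 61.7%, 62.9% and 66.0% at 0 or 1 of 2500 and 15.3%, 14.9% and 16.8% at 10 or more. Those with a Foxp3 UMI had shares of 22.9%, 26.4% and 27.5%, and those without had 39.2%, 37.6% and 31.8%. Over all cells the G2/M share was 3.69%, 3.77% and 3.83% (192 of 5208, 205 of 5434 and 352 of 9179), with overlapping intervals. Of these G2/M cells 45.8%, 55.1% and 69.3% were over the ceiling and 31.8%, 22.9% and 11.9% in Tfh subcluster 8.

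S and G2/M met in the same cells to unequal degrees. Of G2/M cells over the ceiling, 85.2%, 83.2% and 83.6% also counted as S phase cells, against 56.7%, 48.1% and 30.1% in Tfh. In Tfr only 1, 3 and 2 cells counted for both, against 51, 38 and 25 in Tfh. In subcluster 8 the share was 63.9%, 55.3% and 45.2%. BKO was lowest in Tfh and in subcluster 8 and between the WT values over the ceiling.

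**Figure D5:**
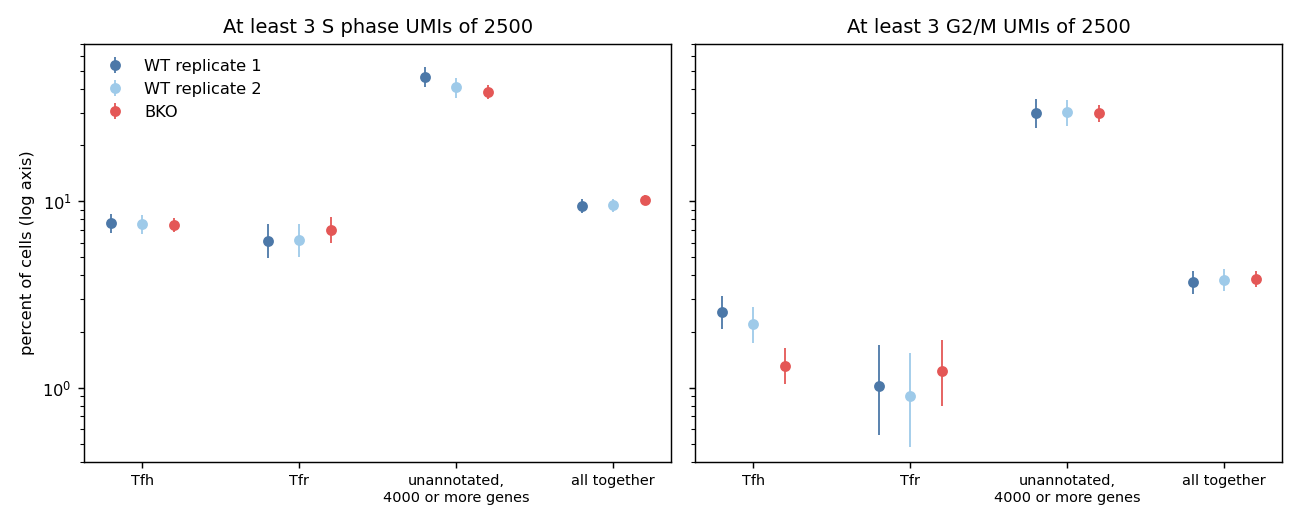
Percent of cells with at least 3 S phase UMIs (left) or G2/M UMIs (right) after thinning to 2500 UMIs, on a log axis, in Tfh, Tfr, unannotated barcodes of 4000 or more genes and all cells together. Bars are exact 95% binomial intervals. G2/M shares are 2.55%, 2.19% and 1.31% in Tfh and 3.69%, 3.77% and 3.83% in all cells.

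Other genes of the cycle were counted in 5 lists, to be read against the 4.29% of all genes called lower in Tfh cells. There 29 of 49 other mitosis genes were measured, 14 were called lower and 0 higher, with a median of -0.58. Hmmr, a protein of the spindle poles, stood at 9.87, 7.12 and 2.15 CPM (-1.76), Knl1 of the kinetochore at 10.9, 10.3 and 3.0 CPM (-1.67) and Prc1, which bundles the midzone, at 25.1, 19.5 and 8.01 CPM (-1.42). The other 11 were Ndc80, Spc24, Kif23, Kif22, Kif15, Ect2, Ncapg, Ncapg2, Tacc3, Cdkn3 and Arhgap11a. Of the 14, Hmmr, Knl1, Spc24, Kif23, Kif22, Ect2, Ncapg, Cdkn3 and Arhgap11a lay under 5 CPM in BKO. They reached the minimum only through WT. Of 32 other replication genes 28 were measured and 5 were called lower, with a median of -0.17. These were Clspn, which signals stalled forks, at 11.1, 8.52 and 3.55 CPM (-1.35), Pola1, a subunit of the priming polymerase, at 53.2, 49.2 and 31.3 CPM (-0.70), and Pole, Prim2 and Chaf1a (-0.63, -0.59 and -0.81). Clspn and Chaf1a likewise lay under 5 CPM in BKO and reached the minimum only through WT. The G1 list had 16 of 21 measured and 1 called lower, Rbl2, a pocket protein of resting cells, at 126, 125 and 73.0 CPM (-0.78). Of 14 inhibitors and quiescence genes 10 were measured and 0 called, and of 10 abundant chromatin and tubulin genes all 10 were measured and 0 called. In barcodes of 4000 or more genes, 0 of 49 other mitosis genes (median 0.15) and 0 of 32 replication genes (median -0.12) were called. Over all genes there, 0.881% were called higher and 4.22% lower. With annotated cells and these barcodes in 1 sum, 0 of 43 and 0 of 30 measured genes were called. The shares of all genes were then 0.711% higher and 2.99% lower.

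Rbl2 was also called lower in Tfr cells at 161, 164 and 107 CPM (-0.60) and over the ceiling at 124, 127 and 66.4 CPM (-0.91). Ccnd3, the D-type cyclin of lymphocytes, was called lower in Tfr at 783, 787 and 479 CPM (-0.71), as was Prim1 at 10.5, 10.7 and 6.94 CPM (-0.58). Myc, which drives growth before division, was called higher over the ceiling at 7.35, 8.51 and 20.6 CPM (1.33), while E2f3 and Tob1 were called lower there (-0.68 and -0.78).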

How the data were processed

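Single-cell 3′ RNA libraries of mouse follicular T cells were deposited as raw UMI counts per gene and barcode, made by the authors with cellranger-7.0.1 (WT) and Cell Ranger 4 (BKO), per the file headers, on mm10, per the submitters' processing notes. The sources used here do not say if intron reads were kept. The BKO matrix is unfiltered (1275404 barcodes). Class, subcluster (resolution 0.3, per the file headers) and table counts came from the authors' tables, matched by barcode; the tables keep cells under 4000 genes and 10% mitochondrial UMIs, and for WT replicate 2 hold a median of 0.659 of the matrix UMIs. No doublet caller was run, and the sources used here do not state how the authors dealt with doublets.

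The members and lists were chosen with earlier results of these data known. The WT samples held the same barcodes, which leaves no replicate libraries for a count model, and no p-value was computed. UMIs were summed by sample and class (Python 3.11.15, numpy 2.4.6, scipy 1.17.1) and scaled to CPM, and the rule of size in the report was applied to all genes. Poisson and Clopper-Pearson intervals (95%) cover counting error only. Intron lengths came from GENCODE models, matched for 32158 features. Values in every sample are given for called members, the 4 of highest CPM per phase and class, Stmn1 and Hmgb2; genes of other lists are named where called. Members named for subcluster 8, for intron length and over the ceiling were chosen after their values were seen. Alternatives were TMM scaling (edgeR 4.0.16), other minimums and added CPM, leaving out a WT replicate, an intron length trend, other sets of cells and other thinning.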

Additional observations from a re-analysis of the deposited data

Results flagged for a closer look

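Of the members measured in both classes, there were 5 for which BKO lay on one side of both WT replicates in Tfh cells and on the other side in Tfr cells. Their log2 ratios in Tfh and Tfr were -0.04 and 0.11 for Pcna, -0.20 and 0.13 for Dut, -0.14 and 0.38 for Cenpa, -0.83 and 0.15 for Cdca8, and -0.23 and 0.10 for Hmgb2. The difference between the classes was not tested, since each genotype is 1 library, and of these only Cdca8 in Tfh was past the rule of size.

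Members were also found in barcodes that no comparison uses. The 907649 BKO barcodes with 50 or fewer UMIs held S phase members at 742 CPM and G2/M members at 601 CPM. The unannotated WT barcodes with fewer than 4000 genes held S phase members at 845 CPM and G2/M members at 4270 CPM in WT replicate 1 (116 barcodes, 102 of them with 10% or more mitochondrial UMIs). In WT replicate 2 they held 324 and 1373 CPM (229 barcodes, 215 of them with 10% or more). All lie above the level that 3 counts would give.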

How the results depend on the processing

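One library stands for each genotype and the WT replicates are the same cells, so no setting measures variation between mice. No paired analysis was possible because the groups share 1 replicate number only and no test was made. The alternatives that put back BKO barcodes at matched depth or left-out Foxp3 barcodes were chosen after seeing the data. The count of 12 G2/M calls in Tfh ran from 10 to 17 under added CPM, a minimum of 1 CPM, TMM scaling, the intron trend, WT cells of the same class in both replicates and leaving out either WT replicate. They were 2 at a minimum of 20 CPM, 0 without subcluster 8, 0 with barcodes of 4000 or more genes, and 2 with BKO barcodes put back at the depth of WT replicate 1. The 2 S phase calls in Tfh were 3 at a minimum of 1 CPM, 3 with the intron trend, 1 with TMM, 0 at 20 CPM, 0 without subcluster 8, 0 with the barcodes of 4000 or more genes, 0 with those put back, and 1 to 2 on leaving out a WT replicate.

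For the summed log2 ratios in Tfh (S -0.14, G2/M -0.96), TMM gave 0.022 and -0.80, no subcluster 8 gave -0.018 and -0.13, the barcodes of 4000 or more genes gave 0.077 and 0.016, WT cells of the same class in both gave -0.10 and -0.83, and those put back gave 0.090 and -0.31. Leaving out a WT replicate gave -0.85 to -1.07 for G2/M. In Tfr (0.096, -0.021), TMM gave 0.21 and 0.094, the barcodes of 4000 or more genes 0.31 and 0.49, those put back 0.54 and 1.37, and the left-out Foxp3 barcodes -0.22 for G2/M. Calls in Tfr were 1 S phase member lower, 1 G2/M member higher and 3 lower at a minimum of 1 CPM; 0 to 1 S phase member higher and 0 to 1 lower on leaving out a WT replicate; 1 S phase and 7 G2/M members higher with the barcodes of 4000 or more genes; and 3 and 12 higher with those put back. Several of the members called higher with those put back lay under 5 CPM in WT and reached the minimum only through BKO. Barcodes of 4000 or more genes with no B cell marker UMI gave -0.059 (S) and -0.078 (G2/M), against 0.045 and 0.25 for all. In all of these barcodes, leaving out a WT replicate gave -0.0032 to 0.095 for S.

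The log2 ratio of the share of Tfh cells with S phase UMIs (-0.020) was -0.38 at 1500 UMIs, 0.23 unthinned and -0.95 at 5 UMIs or more. That with G2/M UMIs (-0.85) was -0.54 at 2 UMIs or more, -0.19 unthinned and -0.16 with the barcodes of 4000 or more genes. The G2/M share in Tfr (0.36) was -0.51 at 1500 UMIs, -0.057 unthinned and -0.15 at 5 UMIs or more, and the S share in Tfr (0.18) was -0.57 at 5 UMIs or more. Without subcluster 8, Birc5 (0.12), Cenpf (0.085), Ube2c (0.15) and Cdca8 (0.0053) turned positive, but each was then under the minimum of 5 CPM and not measured. With the barcodes of 4000 or more genes, Tk1 (0.064), Cdk1 (0.0035), Birc5 (0.33), Cdca3 (0.20), Cdca8 (0.21) and Stmn1 (0.12) did. TMM changed the calls over all genes from 68 higher and 424 lower to 157 and 237 in Tfh, and from 138 and 336 to 226 and 189 in Tfr. The causes were not tested, except that a higher minimum and fewer cells leave fewer members to call.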
